A study of Mus musculus with 12 samples.

Results

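Messenger RNA was compared between wild-type C57BL/6 mouse primordial germ cells taken at embryonic day 11.5 (E11.5, 2 libraries) and at embryonic day 13.5 under the label E13.5m (3 libraries). Each library was made from 400 to 5000 cells by low-input amplification of cDNA. The authors deposited 1 pooled FPKM value per group (fragments scaled by transcript length and by the number mapped), so no value per library and no sequencing depth can be given. All rows with a completed test were taken: 12311 of 22552 gene rows. A gene was called where the q-value in the authors' deposited table was under 0.05, and each log2 ratio of E13.5m over E11.5 carries a standard error (SE) derived from the deposited statistic. The E11.5 libraries carry no sex in their labels, and no label ties libraries to separate embryos. The deposited test therefore covers these libraries only and not a spread between embryos. How far it or the SE reflects the spread between libraries cannot be checked from pooled values.

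Germ cells reach the gonad at about the earlier of these stages, still dividing and still carrying much of the pluripotency network. In a testis they then stop dividing, switch on Nanos2 and take up the piRNA pathway, which silences transposons. In an ovary they enter meiosis under retinoic acid and Stra8. Nodal signalling, with its ligand Nodal, its co-receptor Tdgf1 (Cripto) and its feedback inhibitors Lefty1 and Lefty2, is known to be active for a short time in male germ cells after they reach the gonad.

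The 4 marker genes of the E13.5m label were all high at that stage. Nanos2, an RNA-binding protein gene needed for the male germ cell fate (chr7:19572872-19574311, build mm9), stood at 0.0626 FPKM at E11.5 and 25.3 FPKM at E13.5m. Hesx1, a paired-like homeobox gene (chr14:27813547-27815511), stood at 0.230 and 58.4 FPKM, and Otx2, the orthodenticle homeobox gene (chr14:49277858-49282547), at 0.650 and 44.3 FPKM. Lefty1 (chr1:182865169-182868532) stood at 38.1 and 319 FPKM. The first 3 of these genes were thus under 1 FPKM at E11.5, while Lefty1 was already present. Their log2 ratios were 8.66 ± 1.46 (SE) for Nanos2, 7.99 ± 1.197 (SE) for Hesx1, 6.09 ± 0.87 (SE) for Otx2 and 3.07 ± 0.47 (SE) for Lefty1, and all 4 were called. In the column that the tables name E13.5f, a name no sample title carries, the same genes stood at 0.932, 1.09, 1.88 and 2.49 FPKM after a constant rescaling to this table.

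The stretches before the transcription start of some genes that rose are shown in 2 sets. The sequences come from RefSeq on GRCm38.p6, 5′ to 3′ on the gene's strand, and were searched over the 250 bases before the first start listed. The first set is shown because its members, all of the germ cell, meiosis or male lists described below, hold the palindrome CACGTG, an E-box, which is in capitals. Each line gives 60 bases around it.
Mael: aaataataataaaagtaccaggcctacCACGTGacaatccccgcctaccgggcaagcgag
Tdrd1: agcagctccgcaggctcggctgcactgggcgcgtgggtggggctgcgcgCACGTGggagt
Brdt: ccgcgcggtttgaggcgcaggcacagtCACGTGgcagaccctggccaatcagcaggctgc
Slc25a31: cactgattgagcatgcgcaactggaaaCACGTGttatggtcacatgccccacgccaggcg
Sycp1: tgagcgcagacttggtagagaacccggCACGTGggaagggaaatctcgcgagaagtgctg
Tex12: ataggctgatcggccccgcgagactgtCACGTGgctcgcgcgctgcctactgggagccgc
4930447C04Rik: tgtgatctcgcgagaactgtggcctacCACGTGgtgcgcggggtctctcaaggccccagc

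These windows lie at chr1:166238935-166238994 (minus strand) for Mael, chr19:56826149-56826208 (plus) for Tdrd1, chr5:107331089-107331148 (plus) for Brdt, chr3:40708751-40708810 (plus) for Slc25a31, chr3:102936162-102936221 (minus) for Sycp1, chr9:50561329-50561388 (minus) for Tex12 and chr12:72917904-72917963 (minus) for 4930447C04Rik. The first base of the motif lay between 11 bases (Tdrd1) and 223 bases (Mael) before the start. Of the 20 members of these lists called higher, 18 had a window, and 7 of them (38.9%) held CACGTG. Among the tested members of the lists it was in 17 of 69 windows (24.6%), and among all 27025 genes with a window in 6.05%. Of the other motifs searched on both strands, TTTCCCGC (E2F) and GGGGCGGGG (GC-box) were each in 1 of the 18 windows, beside 3 and 7 of the 69 windows of tested list members (4.35% and 10.1%) and 0.929% and 10.5% of all windows. Over the 9756 windows of tested genes these shares were 1.74% and 19.8%. TAATCC (Otx2), CTTTGAT (Tcf/Lef) and TGTGGATT (Foxh1) were in 0 of the 18, beside 0, 0 and 1 of the 69 windows of tested list members. Their shares were 4.89%, 2.32% and 0.451% over the windows of tested genes and 6.38%, 3.23% and 0.751% over all windows. A match is a description of letters and was not tested as a binding site. The 250 bases of these 7 genes held 11 to 20 CG dinucleotides, and the median was 15 over the 69 windows of tested list members and 6 over all windows. Windows were found for 79.2% of all tested genes, too few for a check against them. Over those 9756 windows the median was 15, and 8.58% held CACGTG.

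The second set is shown because it holds 3 of the marker genes and Stra8, chosen for their roles and not for their sequence, with the last 60 bases before the start and each CG in capitals.
Nanos2: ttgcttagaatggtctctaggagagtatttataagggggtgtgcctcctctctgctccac
Hesx1: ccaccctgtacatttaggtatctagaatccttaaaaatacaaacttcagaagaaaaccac
Otx2: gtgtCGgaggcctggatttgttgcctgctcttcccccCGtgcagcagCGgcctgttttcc
Stra8: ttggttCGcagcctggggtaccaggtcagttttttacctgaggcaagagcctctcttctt

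They lie at chr7:18987464-18987523 (plus), chr14:27000302-27000361 (plus), chr14:48667645-48667704 (minus) and chr6:34920888-34920947 (plus). Over the whole 250 bases Nanos2 held 0 CG, Hesx1 2, Stra8 5 and Otx2 6.

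Across all tested genes, 601 (4.88% of those tested) were called. Of these, 362 (2.94%) were higher at E13.5m and 239 (1.94%) were lower. The 2 columns were otherwise balanced, with a median log2 ratio of 0.02 over the 8980 genes at 1 FPKM or more in both. Relative to that median 362 of 11425 genes with an SE were higher (3.17%) and 250 lower (2.19%). Genes that rose came from low levels, with a median of 1.57 FPKM at E11.5 and 11.2 FPKM at E13.5m. Genes that fell went from a median of 22.4 to 4.40 FPKM. In all, 48 genes rose from under 1 FPKM to 5 FPKM or more, and 21 fell from 5 FPKM or more to under 1 FPKM. At a threshold of 0.01 on the same q-value 296 genes were left, so a gene with a q between these thresholds is a call at 0.05 only. Such calls are marked below for some genes only. Klf4, Slc25a5, Eif2s3x, Irgm1, Phc2, Scd1 and Zp1 are among those left unmarked. Where a number of list members is said to have risen or fallen, it counts called genes. Each such count is to be read beside the shares over all tested genes, 2.94% higher and 1.94% lower.

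**Figure D1:**
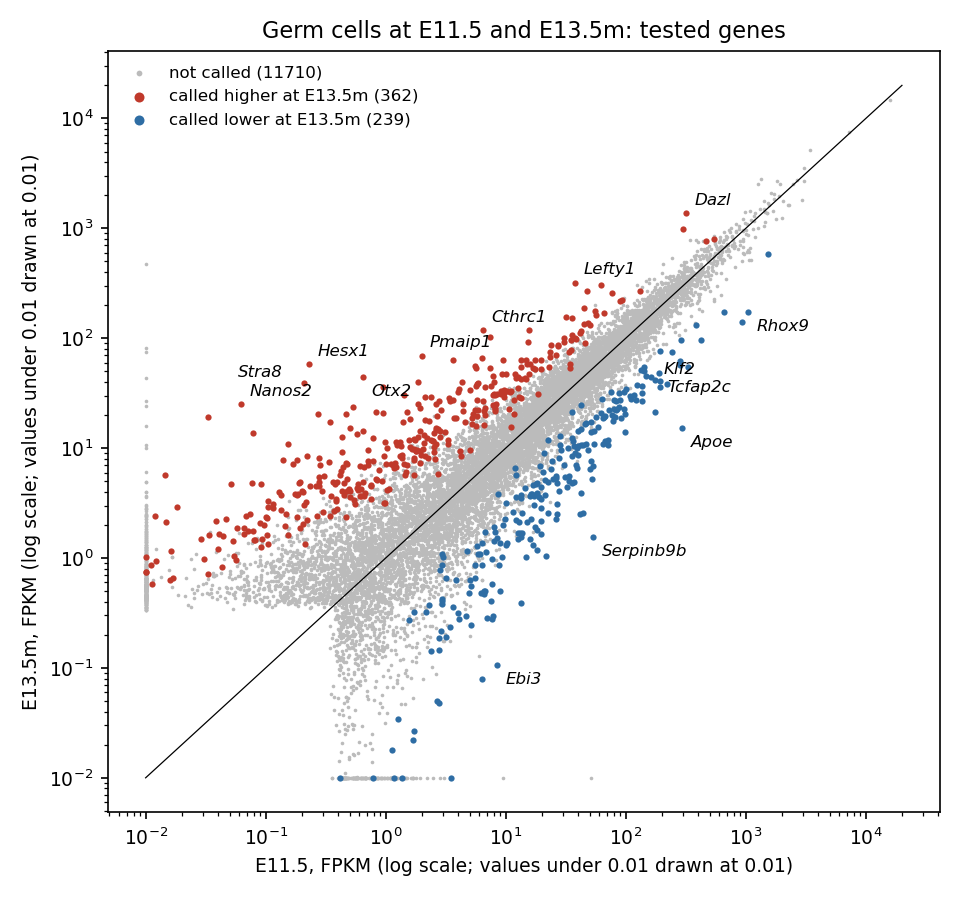
Each point is 1 tested gene, with its FPKM at E11.5 on the x axis and at E13.5m on the y axis, both on log scales, red for the 362 genes called higher and blue for the 239 called lower. Nanos2, Hesx1 and Stra8 lie at the upper left, having risen from under 1 FPKM, while Apoe, Rhox9 and Serpinb9b lie below the diagonal.

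In bulk samples such as these a change in the share of a cell type and a change in RNA per cell cannot be told apart. Markers of other cells were therefore read first. Ptprc, the leukocyte antigen, and Sry were listed at 0 FPKM in both groups, and Foxl2, a granulosa cell gene, likewise. Col1a1 and Pdgfra of mesenchyme stood at or under 0.335 FPKM and Cdh5 and Kdr of endothelium at or under 0.296 FPKM in both groups. Sertoli and male soma markers had 2 of 18 tested members higher and 0 lower, and their summed level went from 127 to 215 FPKM, with 9 of 23 members at 0 at E11.5 and 3 at E13.5m. Much of that sum is Dmrt1, which germ cells express themselves, at 57.0 and 162 FPKM. Amh, the Sertoli hormone gene, rose from 0.129 to 4.01 FPKM and Sox9 was at 0.104 and 0.557 FPKM. Leydig cell markers had 0 of 7 called by Cuffdiff and 4 with an unadjusted p under 0.05, although each of the 7 had a higher value at E13.5m and their sum went from 2.30 to 23.5 FPKM. The highest was Cyp17a1, a steroid hydroxylase gene, listed at 0 FPKM at E11.5 and at 9.9995 FPKM at E13.5m with a deposited q of 0.0597. These somatic testis transcripts moved in the same direction as the male germ cell genes below. Amh and Cyp17a1 reached levels as high as those of the lower male germ cell genes, such as Tdrd1 and Zbtb16, and the part of somatic cells in those results was not tested.

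Markers of other sources went both ways. Of 8 tested female soma markers 1 was called higher (Rspo1), all 8 had a higher value, and the sum went from 7.70 to 27.4 FPKM with 2 of 10 at 0 in each group. Of 5 tested endothelium markers 1 was lower (Esam), with a sum of 51.5 and 23.1 FPKM and 3 of 10 members with a value at 0 at E11.5 and 2 at E13.5m. Of 12 tested blood and macrophage markers 0 were called by Cuffdiff and 3 had an unadjusted p under 0.05, with a sum of 31.5 and 21.5 FPKM and 2 of 17 at 0 at E11.5 and 5 at E13.5m. The adult globin gene Beta-s, chosen after its value was seen, rose from 0.169 to 7.11 FPKM. Mesenchyme markers had 1 of 5 higher (Mfap4) and 1 lower (Sparc), with a sum of 119 and 47.8 FPKM and 1 of 15 at 0 in each group. Epithelium and mesonephros markers had 3 of 11 higher (Krt17, Krt19 and Lhx1) and 1 lower (Pax8), and their sum of 253 and 419 FPKM was mostly Epcam, a gene that germ cells also express, at 201 and 310.4 FPKM. Of 14 members of this list 2 were at 0 in each group.

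**Figure D2:**
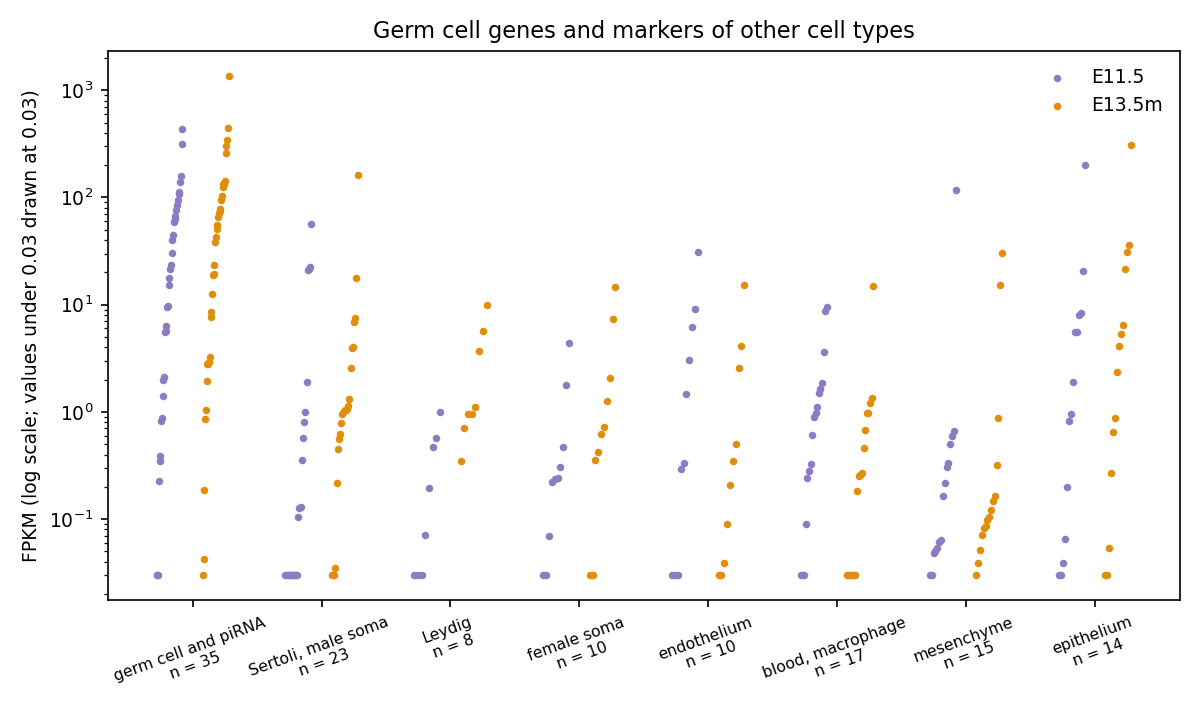
Each point is 1 gene of a list, plotted by its FPKM on a log scale at E11.5 (purple) and E13.5m (orange), with values under 0.03 drawn at 0.03. Germ cell genes reach 1366 FPKM (Dazl). Tested epithelium markers reach 310.4 FPKM (Epcam), Sertoli and male soma markers 162 FPKM (Dmrt1) and mesenchyme markers 116 FPKM (Sparc). Endothelium markers reach 31.1 FPKM, blood and macrophage markers 14.9 FPKM, female soma markers 14.6 FPKM and Leydig markers 9.9995 FPKM.

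Of the Nodal pathway, the inhibitors, the co-receptor and Foxh1 were high at both stages, and the ligand was low. Of its 19 tested members 1 was called higher, Lefty1, and 0 were called lower, although 13 had a lower value at E13.5m. The list's median change in log2(FPKM + 1) was -0.34, beside 0.05 over all tested genes. Lefty2, the second feedback inhibitor, stood at 132 and 171 FPKM (log2 ratio 0.37 ± 0.47, SE). Tdgf1, the co-receptor, stood at 38.7 and 26.6 FPKM, and Foxh1, the transcription factor that works with Smad2, at 169.9 and 79.7 FPKM. Nodal itself was listed at 0.520 and 0.197 FPKM and the activin subunit gene Inha at 0.356 and 2.56 FPKM. None of these 5 was called. In the E13.5f column, Lefty2 stood at 1.36 FPKM and Tdgf1 at 0.865 FPKM, and both were called lower than E11.5 there, in a table with 2.68% of tested genes called lower and 9.34% higher. That comparison shares the E11.5 libraries with this one.

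Among 26 tested homeobox genes outside the Hox and Rhox clusters, 5 were called higher and 0 lower, and 3 calls were left at a threshold of 0.01. Beside Hesx1 and Otx2 they included Hhex, from 3.12 to 14.1 FPKM, and Lhx1, from 7.94 to 30.8 FPKM. Lhx1 was also counted above among the epithelium and mesonephros markers, and the part of such cells was not tested. Lhx1 and Otx2 act together in the anterior of the early embryo, where Lefty1 and Hesx1 are also expressed. The rest of the list had values on both sides, with a median change of 0.03. Meis3 stood at 8.26 and 0.959 FPKM and Gbx2 at 17.3 and 4.87 FPKM, neither of them called.

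Of 19 tested genes in the male germ cell list, 6 were called higher and 0 lower. Its median change was 1.02, and 17 of the 19 had a higher value at E13.5m. Egr4, an early growth response gene of germ cells, rose from 0.153 to 10.97 FPKM (log2 ratio 6.17 ± 1.14, SE). Tdrd5, a tudor domain gene of germ granules, rose from 23.4 to 75.4 FPKM, and Mael, which works in transposon silencing, from 62.7 to 302 FPKM. Tdrd1 and Zbtb16, the PLZF gene of spermatogonial stem cells, were also called higher but were low at E13.5m, at 2.79 and 0.822 FPKM. The call of Zbtb16 was lost at a minimum of 1 FPKM and at a threshold of 0.01. Dnmt3l, the cofactor of de novo methylation, was at 0.155 and 0.879 FPKM and Piwil4, the PIWI protein of fetal male germ cells, at 0.881 and 3.24 FPKM, neither called. The older partners Dnd1, at 257 and 313 FPKM, and Nanos3, at 38.2 and 37.2 FPKM, were not called. In E13.5f Mael stood at 453 FPKM and was called higher than E11.5. Egr4, at 0.585 FPKM, and Tdrd5, at 16.1 FPKM, were not called there. Of 17 members tested in that comparison 3 were called higher and 0 lower, beside 9.34% and 2.68% of all genes tested there.

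The wider germ cell and piRNA list had 7 of 31 tested genes called higher and 0 lower. Its median change was 0.96, and 27 members had a higher value. Dazl, an RNA-binding protein gene that was already at 317 FPKM, rose to 1366 FPKM (log2 ratio 2.11 ± 0.44, SE). Brdt, a testis bromodomain gene, rose from 6.35 to 65.5 FPKM. Slc25a31, the germ line ADP/ATP carrier gene, rose from 76.3 to 257 FPKM, while its housekeeping counterpart on the X chromosome, Slc25a5, fell from 1522 to 587 FPKM (log2 ratio -1.38 ± 0.45, SE). Ddx4, the vasa helicase gene, went from 157 to 344 FPKM and was not called, and Piwil2, at 9.46 and 7.69 FPKM, was not called either. In E13.5f the values were 1456 FPKM for Dazl, 89.8 FPKM for Brdt and 349 FPKM for Slc25a31, so these genes were high under both labels at day 13.5.

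**Figure D3:**
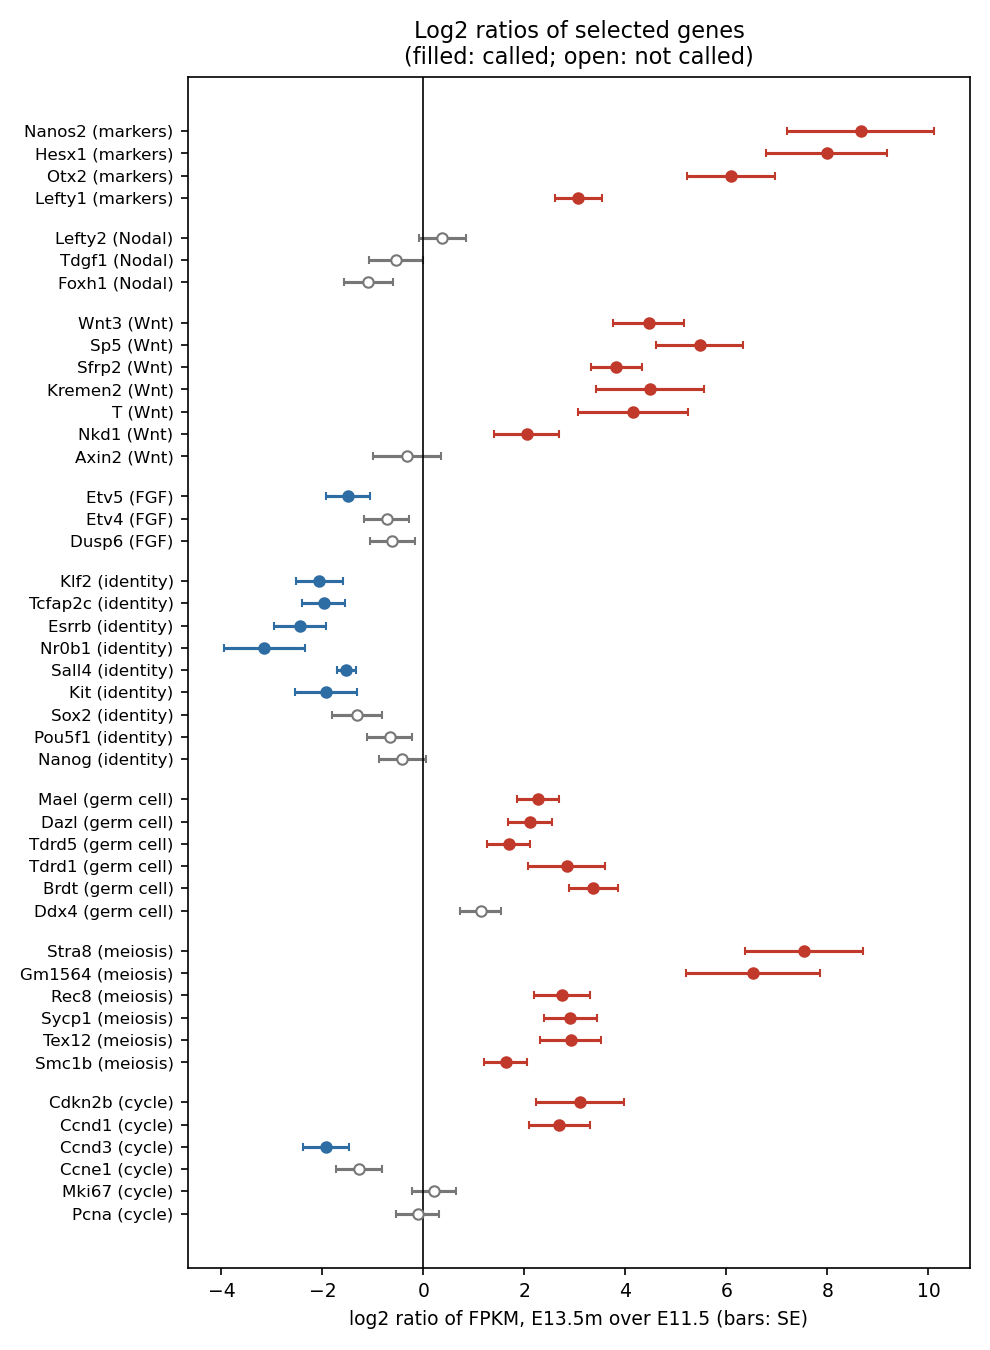
Points are log2 ratios of FPKM at E13.5m over E11.5 for selected genes grouped by role, with SE bars, filled where called and open where not. Nanos2, at 8.66, Hesx1, at 7.99, and Stra8, at 7.54, lie farthest to the right, while Lefty2, Pou5f1, Nanog, Mki67 and Pcna have open points near 0.

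Among 36 tested genes of meiosis, 10 were called higher and 0 lower. Their median change was 0.99, and 32 of the 36 had a higher value at E13.5m. Stra8, the gatekeeper of meiotic entry, rose from 0.210 to 39.0 FPKM (log2 ratio 7.54 ± 1.17, SE), and its level in E13.5f was 295 FPKM. Rec8, the meiotic cohesin, rose from 5.76 to 38.7 FPKM, against 317 FPKM in E13.5f, and Meioc, listed as Gm1564, from 0.0516 to 4.75 FPKM, against 23.1 FPKM. Synaptonemal complex genes rose as well. Sycp1 rose from 3.65 to 27.4 FPKM beside 53.5 FPKM in E13.5f, Tex12 from 15.6 to 118 FPKM beside 197 FPKM, and Six6os1, listed as 4930447C04Rik, from 7.81 to 30.4 FPKM beside 48.5 FPKM. Recombination genes were mostly low at E13.5m, with Dmc1, the meiotic strand exchange protein, at 9.82 FPKM and Prdm9, which places recombination sites, at 2.05 FPKM, neither called. Sycp3 was listed at 46.5 and 187 FPKM, but its test failed in the authors' run. No test between the columns of different tables was made.

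Of 37 tested pluripotency and identity genes, 8 were called lower, 1 higher and 28 neither. The 3 core factors were among the 28. Pou5f1 (Oct4) stood at 620.3 and 390.1 FPKM, Nanog at 113 and 84.9 FPKM and Sox2 at 46.6 and 18.7 FPKM, none of them called. The 8 genes that fell were mostly others of the naive network. Klf2 fell from 175 to 41.9 FPKM (log2 ratio -2.06 ± 0.46, SE), Esrrb from 38.4 to 7.08 FPKM and Nr0b1 (Dax1) from 22.7 to 2.56 FPKM. Tcfap2c, the AP2 gamma gene of germ cell specification, fell from 189.7 to 48.4 FPKM, and Tcfcp2l1 and Sall4 fell as well. Klf4, by contrast, rose from 0.580 to 4.37 FPKM.

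Kit, the receptor through which migrating germ cells receive stem cell factor, fell from 13.4 to 3.53 FPKM (log2 ratio -1.93 ± 0.61, SE). Dppa3 (Stella) stood at 1349 and 2823 FPKM and was among the 10 highest genes at E13.5m, although its change was not called. In E13.5f, Klf2, Esrrb and Nr0b1 were called lower too, while Tcfap2c stood at 118 FPKM and was not called.

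The FGF, BMP and retinoic acid lists gave 1 or 2 calls each, beside 2.94% of all tested genes called higher and 1.94% lower. In the FGF list 1 of 15 tested members fell, Etv5, an ETS factor that responds to FGF, from 142 to 50.5 FPKM, and 0 rose, with a median change of -0.49. Etv5 was lost at a threshold of 0.01. In the BMP list 1 of 19 rose, the ligand gene Bmp4, from 5.91 to 39.3 FPKM, and 0 fell. The BMP response genes Id1, at 51.0 and 30.4 FPKM, and Id3, at 545.5 and 219 FPKM, were not called; in E13.5f they stood at 239 and 792 FPKM. Of 16 tested retinoic acid genes 0 rose and 2 fell, both lost at a threshold of 0.01, among them the receptor gene Rarg, from 19.4 to 6.88 FPKM. Cyp26b1, which degrades retinoic acid in the testis soma, was listed at 0 and 0.0348 FPKM.

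The Wnt pathway list was written after the values were seen. It had 10 of 44 tested genes called higher and 0 lower, while the list's median change was 0.04. The ligand gene Wnt3 (chr11:103635488-103679335) rose from 0.950 to 20.9 FPKM (log2 ratio 4.46 ± 0.70, SE). Sp5, a transcription factor gene that responds to Wnt, rose from 0.533 to 23.6 FPKM, and T (Brachyury) from 0.277 to 4.91 FPKM. Secreted and membrane modulators rose with them. Sfrp2 rose from 7.33 to 104 FPKM, Cthrc1 from 6.46 to 118 FPKM and the Dkk co-receptor gene Kremen2 from 0.336 to 7.54 FPKM. Nkd1, Fzd2, Rspo1 and Dkk3 were called as well, the last at under 1 FPKM in both groups. Rspo1 was also counted above as a female soma marker, and the part of such cells was not tested. The usual feedback target Axin2 was at 3.02 and 2.41 FPKM, Lef1 at 58.7 and 22.0 FPKM and Ctnnb1 (beta-catenin) at 108 and 74.7 FPKM, none of them called. In E13.5f Wnt3 stood at 2.65 FPKM, Cthrc1 at 10.2 FPKM and T at 0.468 FPKM, none called there, while Sp5 stood at 20.8 FPKM and Sfrp2 at 54.2 FPKM, both called higher.

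Notch genes, also listed after the values were seen, were called both ways in 18 tested members. Hes1 rose from 3.38 to 28.7 FPKM and Dll3 from 1.34 to 10.5 FPKM, while Hes3 fell from 7.90 to 0.2997 FPKM and Notch1 from 2.18 to 0.322 FPKM.

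Cell cycle genes were read against the 4.88% of all tested genes that were called. Of 46 tested DNA replication genes and 45 tested mitosis genes, 0 passed the deposited Cuffdiff test, and in each list 2 had an unadjusted p under 0.05. The medians were -0.11 and 0.06. Mki67 stood at 16.0 and 18.5 FPKM, Pcna at 338 and 313 FPKM and Ccnb1 at 620.4 and 677 FPKM. Among 27 tested G1 regulators 2 rose and 1 fell. Cdkn2b, the p15 inhibitor gene, rose from 1.23 to 10.6 FPKM and Ccnd1 (cyclin D1) from 1.603 to 10.3 FPKM, whereas Ccnd3 (cyclin D3) fell from 658 to 173 FPKM (log2 ratio -1.93 ± 0.45, SE). Cdkn2b was lost at a threshold of 0.01. In E13.5f Cdkn2b stood at 7.08 FPKM and Ccnd1 at 40.3 FPKM, both called higher than E11.5. Ccnd3 stood at 304 FPKM there and was not called. Ccne1 (cyclin E1) stood at 216 and 89.4 FPKM and Cdkn1b, the p27 gene, at 1.73 and 2.62 FPKM, neither called. D cyclins drive entry into S phase, and male germ cells are known to arrest in G1 from this age.

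The actin cytoskeleton list was also written after the values were seen. It had 16 of 48 tested genes called lower and 1 higher. The list's median change was -0.74. In E13.5f 12 of 48 tested members were called lower than E11.5 and 3 higher, beside 2.68% and 9.34% of all genes tested there. Tmsb4x, a thymosin gene that sequesters actin monomers, fell from 52.2 to 5.24 FPKM, Fscn1 (fascin, which bundles filaments) from 222 to 38.4 FPKM and Crip2, a LIM protein gene, from 329.9 to 54.8 FPKM. Arpc1b, of the Arp2/3 nucleator, fell from 422 to 96.4 FPKM and Cotl1 from 191 to 35.8 FPKM. Actb itself was at 1784 and 1211 FPKM and not called, and Pfn2, a profilin gene, rose from 13.3 to 54.5 FPKM. In the migration and adhesion list 3 of 26 fell and 0 rose, namely Kit, Itgav and Vim (vimentin), the last from 99.2 to 20.5 FPKM. Vim is counted in the actin list as well. Sparc of the mesenchyme list also fell, from 116 to 30.4 FPKM, while Mfap4 of the same list rose from 0.503 to 15.3 FPKM. The collagen markers Col1a1 and Col3a1 were at or under 0.595 FPKM in both groups, and the part of such cells in the fall was not tested.

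Of 23 tested glycolysis genes 3 were called lower and 0 higher. The median change was -0.64, and 20 members had a lower value. Hk1, the hexokinase gene, fell from 33.6 to 5.63 FPKM (log2 ratio -2.58 ± 0.42, SE), the glucose transporter gene Slc2a3 from 26.6 to 4.83 FPKM and Pfkp, a phosphofructokinase gene, from 51.1 to 14.1 FPKM. In E13.5f Hk1 stood at 5.36 FPKM and Pfkp at 16.9 FPKM, both called lower than E11.5, and Slc2a3 at 10.4 FPKM, not called. Ldha stood at 87.1 and 33.7 FPKM and was not called. Of 50 tested oxidative phosphorylation genes 1 rose and 1 fell, the carriers Slc25a31 and Slc25a5 described above, and the median change was 0.02. In the lipid list 2 of 30 fell and 0 rose. Apoe, the apolipoprotein E gene (chr7:20281592-20284515), fell from 296 to 15.2 FPKM (log2 ratio -4.29 ± 0.59, SE), and Scd1, a fatty acid desaturase gene, from 3.65 to 0.357 FPKM. In E13.5f Apoe stood at 73.8 FPKM, called lower than E11.5, and Scd1 at 4.78 FPKM, not called.

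**Figure D4:**
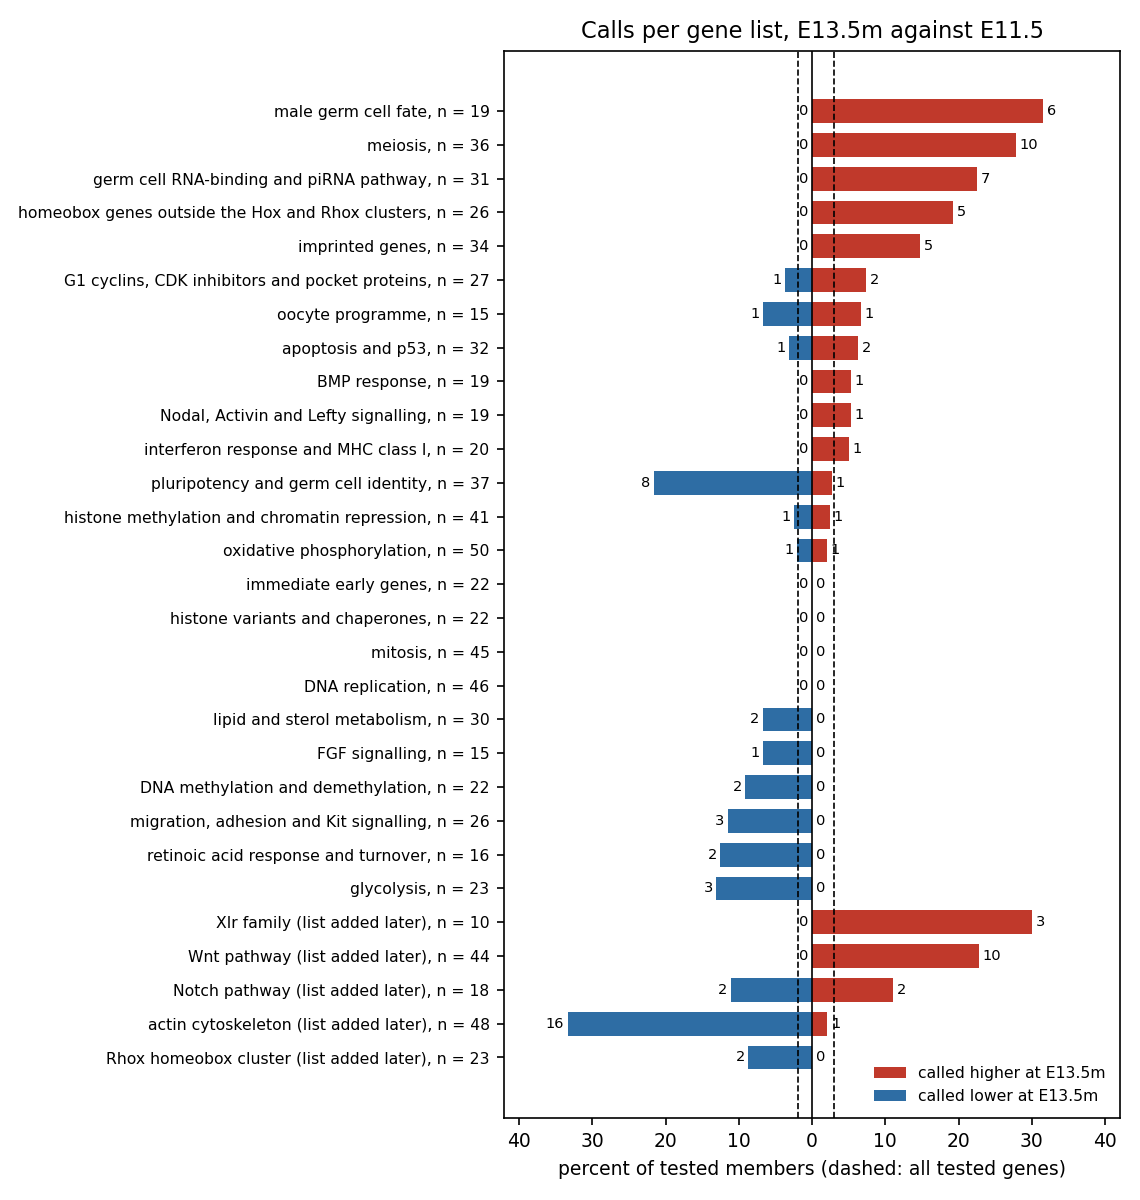
Bars give, for each list other than Y-linked genes, X inactivation and the markers of other cells, the percent of tested members called higher (right, red) or lower (left, blue) at E13.5m, with counts at the bar ends and dashed lines at the shares over all tested genes, 2.94% and 1.94%. The male germ cell list (6 of 19), the Xlr family (3 of 10) and meiosis (10 of 36) extend farthest to the right, and the actin cytoskeleton list (16 of 48) farthest to the left. The Xlr and actin lists were written after the values were seen, and their shares are a description only.

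Of 32 tested apoptosis genes 2 (6.25%) were called higher and 1 (3.125%) lower, beside 2.94% and 1.94% of all tested genes. Pmaip1 (Noxa), a BH3-only gene, rose from 1.99 to 69.2 FPKM (log2 ratio 5.12 ± 0.59, SE), and stood at 0.942 FPKM in E13.5f. Bcl2, the survival gene, was also called higher but reached 0.939 FPKM and was lost at a minimum of 1 FPKM, while Perp, a p53 target, fell from 51.5 to 7.57 FPKM. The other 29 of 32 tested members were not called. Among them Bak1, at 5.04 and 0.196 FPKM, missed the threshold as deposited (q 0.0523) and passed relative to the median.

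Epigenetic regulators were read list by list, against 2.94% of all tested genes called higher and 1.94% lower. Of 22 tested DNA methylation genes 2 fell, both lost at a threshold of 0.01, and 0 rose: Gadd45a, from 35.5 to 4.86 FPKM, and Parp1, from 195 to 77.2 FPKM, both linked to DNA repair. Tet1, which oxidises methylcytosine, was at 10.3 and 9.05 FPKM, not called. Dnmt3a and Dnmt3b, the de novo methyltransferase genes, were listed at 11.8 and 16.2 FPKM and at 1.96 and 4.91 FPKM, and Uhrf1, the maintenance cofactor, at 6.86 and 19.7 FPKM, all with failed tests. In the histone methylation list 1 of 41 rose (Scml2, a germ line Polycomb gene, from 2.03 to 9.78 FPKM) and 1 fell (Phc2, from 13.5 to 3.77 FPKM). Among 22 tested histone variant genes 0 passed the deposited Cuffdiff test, and 3 had an unadjusted p under 0.05.

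Among 34 tested imprinted genes 5 were called higher and 0 lower, and 2 calls were left at a threshold of 0.01. Mest rose from 15.2 to 91.9 FPKM (log2 ratio 2.60 ± 0.46, SE), and Ascl2, a bHLH factor gene, from 3.40 to 26.9 FPKM. Dio3, Gatm and Zrsr1 rose to between 3.81 and 4.13 FPKM. Igf2, at 1.43 and 2.20 FPKM, and H19, at 5.91 and 3.82 FPKM, were not called, and the median change was 0.12. Of 15 tested oocyte genes 1 rose, Zp1, to 1.78 FPKM, and 1 fell, Kit. Figla, the oocyte factor, stood at 0.225 and 2.00 FPKM without a call, beside 6.88 FPKM in E13.5f. Interferon and MHC genes had 1 call in 20, Irgm1, from 6.77 to 23.2 FPKM. Of 22 tested immediate early genes 0 passed the deposited Cuffdiff test, and 3 had an unadjusted p under 0.05.

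The X chromosome had 20 genes higher and 20 lower among 483 tested, which is 8.28% called, beside 4.72% of 11821 autosomal genes. Its median log2 ratio was -0.06 and that of autosomes 0.02. The Rhox reproductive homeobox cluster, listed after the values were seen, had 0 higher and 2 lower in 23 tested members. Rhox6 (chrX:35180231-35183034) fell from 922 to 141 FPKM (log2 ratio -2.71 ± 0.52, SE), and Rhox9 (chrX:35252273-35254947) from 1050.4 to 172 FPKM (log2 ratio -2.61 ± 0.50, SE). In E13.5f they stood at 626 and 775 FPKM and were not called. Rhox1 was at 18.997 and 44.3 FPKM, not called. The near-identical Rhox2 and Rhox4 copies stood at 35.8 FPKM or less, and reads may have been split among them.

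Hmgn5, a nucleosome-binding protein gene, fell from 174 to 21.2 FPKM. The Xlr family, listed after the values were seen and also made of near-identical copies, rose in 3 of 10 cases, Xlr3c, Xlr5a and Xlr5b. At E13.5f, 8 of the 10 were called higher than at E11.5. Taf7l, a germ line TFIID gene, rose from 1.86 to 25.2 FPKM and stood at 87.8 FPKM in E13.5f.

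Of 7 tested Y-linked genes 3 were called higher and 0 lower. Eif2s3y, a translation initiation factor gene needed by spermatogonia, rose from 47.6 to 271 FPKM (log2 ratio 2.51 ± 0.42, SE), and its X-linked partner Eif2s3x fell from 46.8 to 17.0 FPKM. Uty rose from 0.385 to 3.30 FPKM and Rbmy1a1, a germ line RNA-binding gene, from 0.974 to 8.57 FPKM. Zfy1 and Zfy2 were higher in value and not called, while Ddx3y, at 2.23 and 3.35 FPKM, and Kdm5d, at 1.52 and 1.23 FPKM, were not called either. Xist, the X inactivation transcript, was listed at 0.0493 and 0.0411 FPKM without a completed test; Tsix overlaps it on the other strand. For Y-linked and X-linked genes, stage and the share of male cells at E11.5 cannot be told apart.

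The rule for large changes among called genes at 5 FPKM or more named further genes. Fam134b, an endoplasmic reticulum receptor of autophagy, rose from 0.0332 to 19.2 FPKM, Krt17, a keratin gene of the epithelium list, from 0.957 to 36.04 FPKM, and Cbr3, a carbonyl reductase gene, from 0.276 to 20.4 FPKM. Plk5, Dapk2, Ccdc106, Ly6g6e, 2410004A20Rik, Ctsw and Gm1141 also rose, to between 13.7 FPKM (Gm1141) and 64.05 FPKM (2410004A20Rik). Several stood lower in E13.5f, with Krt17 at 0.0634 FPKM, Cbr3 at 0.399 FPKM and 2410004A20Rik at 3.31 FPKM.

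The largest fall on the log2(FPKM + 1) scale was that of Serpinb9b, a serpin protease inhibitor gene, from 53.5 to 1.55 FPKM (log2 ratio -5.11 ± 0.81, SE). Fstl1, a secreted follistatin-like protein gene, fell from 41.6 to 2.50 FPKM, Gcm1, a transcription factor gene of trophoblast, from 26.3 to 2.29 FPKM, and Car2, a carbonic anhydrase gene, from 26.7 to 2.51 FPKM. Cldn7, a tight junction gene, fell from 53.7 to 6.84 FPKM and Ebi3, a cytokine subunit gene, from 8.51 to 0.105 FPKM, with a more negative log2 ratio of -6.34 ± 1.69 (SE). At E9.5, on the scale of this table, Fstl1 stood at 126 FPKM, Cldn7 at 177 FPKM and Car2 at 43.3 FPKM, above their E11.5 values, while Serpinb9b stood at 19.6 FPKM, below its E11.5 value. The E9.5 and E13.5f tables share the E11.5 libraries.

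Genes listed at exactly 0 in a group were counted apart, beside shares over all tested genes of 2.94% called higher and 1.94% lower. Of 330 tested genes at 0 at E11.5, 0 were called by the deposited test and 75 had an unadjusted p under 0.05. The highest of them at E13.5m was Mirlet7d, at 475 FPKM, followed by other microRNA and small nucleolar RNA genes, whose short length makes FPKM unstable. Of 147 tested genes at 0 at E13.5m, 3 were called lower, namely Fcrls, Gpr35 and Sema3a, at 3.50, 1.36 and 1.17 FPKM at E11.5. The 2 highest entries at either stage were Mir703, listed over chr5:98758322-99231038, at 15867 and 14710.1 FPKM, and Eef1a1, the elongation factor gene, at 7269.9 and 7605 FPKM.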

How the data were processed

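Per the labels' protocols, cDNA was made with a SMARTer low-input kit and read on an Illumina instrument. Bowtie, TopHat 1.3.1, Cufflinks 1.2.1 and Cuffdiff 1.2.1 with build mm9 are named in the submitters' processing notes. The authors deposited FPKM values pooled over the libraries of a group, with a p-value and q-value per gene and the test statistic as a score, per the file headers. Whether reads were counted by strand is not given in the sources used here.

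From these the log2 ratio of the 2 FPKM values was computed, and dividing it by the statistic gave its SE. Tests with a statistic under 0.05 gave no SE. List medians are of log2(FPKM + 1), a scale that compresses changes at low levels. The E9.5 and E13.5f tables were multiplied by 0.891 and 1.02, the constant ratios of their E11.5 columns. Of the rows, 1214 had a failed test and 8918 were not tested by the authors. The test against the median ratio was also run on simulated data. Their noise was drawn from the same SEs, so that run could not check the SEs themselves.

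The members, the 33 gene lists and the named-gene rule were chosen with earlier results of these data known, and 5 lists (Wnt, Notch, actin, Rhox, Xlr) were written after the values were seen. The rule named the 4 markers, the 20 largest rises and falls on the log2(FPKM + 1) scale, of called genes that reach 5 FPKM, called genes at 0 in a group, up to 6 members per list, Y-linked genes and Xist, and the 10 highest genes per group. A few list members are counted but not reported here by name. No set test was made. Alternatives were a threshold of 0.01, the adjustment computed again, minimums of 1 FPKM and of 1 in log2 ratio, 1 row per symbol, centring on the median and 0.1 as pseudocount. Software was matplotlib 3.10.9, scipy 1.17.1, pandas 2.3.3, numpy 2.4.6 and Python 3.11.15.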

Additional observations from a re-analysis of the deposited data

How the results depend on the processing

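At a threshold of 0.01 on the deposited q-value 296 genes were called, 187 higher and 109 lower, in place of 601, 362 and 239; fewer genes pass a stricter threshold by construction. The other alternatives gave 588 to 612 calls: the adjustment computed again and 1 row per symbol gave 601, a minimum of 1 FPKM and a minimum log2 ratio of 1 each gave 588, and the test relative to the median gave 612, of which 597 had been called in the same direction. Of the 221 named genes with a log2 ratio 219 kept their side of the threshold relative to the median, and Bak1 and Meis3 passed it only there. Fcrls, Gpr35 and Sema3a, called as deposited, have no SE and could not be tested relative to the median. No named gene or list median changed sign. No paired analysis was possible because the libraries of a group were pooled into 1 value. For the same reason leaving out each replicate in turn was not run, and the effect of a single E11.5 or E13.5m library is not known. Depth is unknown, so low values carry no counting interval. The median SE of called genes was 0.65 on the log2 scale.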

Other observations

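The genes named here were chosen after their values were seen, from calls outside the lists, and no count over a fixed list stands behind them. Trib3, a pseudokinase gene induced by the integrated stress response, rose from 9.56 to 63.5 FPKM (log2 ratio 2.73 ± 0.52, SE). Ddit4, an inhibitor of mTOR signalling, rose from 48.2 to 136 FPKM, Sesn3, a sestrin gene, from 37.8 to 100.4 FPKM and Hmox1, the heme oxygenase gene, from 10.1 to 46.9 FPKM. In E13.5f these genes stood at 72.5, 102, 109.9 and 44.3 FPKM. Prdx6, a peroxiredoxin gene, fell from 284 to 62.5 FPKM.

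The testis alpha-tubulin genes Tuba3a and Tuba3b rose from 303 to 989.7 FPKM and from 45.2 to 188 FPKM; the pair is near-identical in sequence and reads may have been split. Gpat2, a germ cell acyltransferase gene, rose from 41.9 to 113 FPKM, and Zglp1, a zinc finger gene of the germ line, from 16.0 to 58.1 FPKM. Ren1 (renin) rose from 0.431 to 9.13 FPKM and stood at 0.0638 FPKM in E13.5f. The growth factor genes Pdgfa and Pdgfb were called in opposite directions, Pdgfa from 162 to 44.0 FPKM and Pdgfb from 0.232 to 4.50 FPKM.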
